A study of Homo sapiens with 24 samples.

Results

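The genes described here encode glucose transporters and enzymes of glucose and pyruvate metabolism: SLC2A1, SLC2A2, SLC2A3, G6PC2, PFKFB2, PFKM, PC and PCK2. They are 8 of the 20020 protein-coding genes of the annotation and were chosen by function, as genes of glucose transport and glycolytic coupling. For each gene, all regions of the H3K4me3 table that lie within 2 kb of any of its annotated transcription start sites were taken. The strongest region by mean normalized count stands for the promoter and the others are given beside it.

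H3K4me3 was profiled in EndoC-βH3, a human beta cell line of fetal pancreas origin that was immortalised with hTERT and the SV40 large T antigen. The line carries a tamoxifen-activated CreER recombinase that removes both immortalising genes, and its genotype is labelled WT in both groups. There were 4 non-senescent control samples and 4 senescent samples, the latter treated for 3 weeks with 4-hydroxytamoxifen at a dose that the labels give as 1 mM and the study's methods give with the same figure in micromolar. MINT-ChIP was used, in which nuclease-digested chromatin of 500000 cells per sample is barcoded, pooled and then split between antibodies, so that all samples share each immunoprecipitation. All samples come from 1 line, and nothing in the labels says that they were separate cultures.

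The level of a region is the authors' mean over samples of both states of read counts normalized by DESeq2, with no value per sample. It has no SD, the depth of each sample is unknown, and senescent and non-senescent cells are not compared at any gene below. Between genes, levels are compared after division by the length of the region, as mean normalized count per kb, except where an undivided level is named as an alternative. Of all protein-coding genes, 15085 had a region, and the median of their strongest regions was 19.0 per kb, with quartiles of 12.3 and 26.8. The percentile of a gene is the share of these 15085 genes with a lower level per kb.

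Trimethylation of histone H3 at lysine 4 marks the nucleosomes around active transcription start sites, and very wide domains of the mark are known at genes of cell identity. In the beta cell glucose enters through facilitative transporters, is phosphorylated, and passes through glycolysis to pyruvate, so that the rise in ATP closes potassium channels and releases insulin. Beta cells send much of their pyruvate into the citric acid cycle through pyruvate carboxylase, and keep little LDHA and little monocarboxylate transport.

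The promoters lay over very different DNA. RefSeq promoter sequences (GRCh38.p14) matched 6 of the 8 genes, all except SLC2A3 and PFKFB2, in 14 entries. The 200 bases before the start are printed 5′ to 3′ on the gene's strand for 1 start of each gene at or beside its strongest region, and for a start each of PC and PFKM that no region covered. Capitals mark CpG dinucleotides, which are few at the starts of SLC2A2 and G6PC2 and at the downstream starts of PFKM and PC, and more frequent in the other stretches. The stretches are SLC2A1 at chr1:42958869-42959068 (minus strand), SLC2A2 at chr3:171026721-171026920 (minus strand), G6PC2 at chr2:168901091-168901290 (plus strand), PFKM at chr12:48105916-48106115 and chr12:48122447-48122646 (plus strand), PC at chr11:66958384-66958583 and chr11:66907954-66908153 (minus strand) and PCK2 at chr14:24094111-24094310 (plus strand).
SLC2A1: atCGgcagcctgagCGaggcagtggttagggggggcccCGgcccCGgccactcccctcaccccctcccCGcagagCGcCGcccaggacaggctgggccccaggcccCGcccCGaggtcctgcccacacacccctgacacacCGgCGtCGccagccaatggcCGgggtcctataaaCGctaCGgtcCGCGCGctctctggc
SLC2A2: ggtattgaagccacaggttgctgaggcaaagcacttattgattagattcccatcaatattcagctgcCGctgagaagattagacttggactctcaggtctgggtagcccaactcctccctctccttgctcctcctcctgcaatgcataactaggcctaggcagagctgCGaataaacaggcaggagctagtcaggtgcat
G6PC2: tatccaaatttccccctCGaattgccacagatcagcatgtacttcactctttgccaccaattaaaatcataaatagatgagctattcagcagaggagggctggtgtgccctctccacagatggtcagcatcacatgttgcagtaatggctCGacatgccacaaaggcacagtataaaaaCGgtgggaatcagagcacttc
PFKM, upstream start: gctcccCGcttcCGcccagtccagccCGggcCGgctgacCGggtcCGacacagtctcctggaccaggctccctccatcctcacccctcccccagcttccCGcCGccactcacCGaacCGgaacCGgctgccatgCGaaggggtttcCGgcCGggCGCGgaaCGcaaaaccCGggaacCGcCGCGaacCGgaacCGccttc
PFKM, downstream start: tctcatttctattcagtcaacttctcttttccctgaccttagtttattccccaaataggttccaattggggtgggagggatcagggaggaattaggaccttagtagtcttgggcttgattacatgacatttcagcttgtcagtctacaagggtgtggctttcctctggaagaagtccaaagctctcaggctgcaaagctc
PC, upstream start: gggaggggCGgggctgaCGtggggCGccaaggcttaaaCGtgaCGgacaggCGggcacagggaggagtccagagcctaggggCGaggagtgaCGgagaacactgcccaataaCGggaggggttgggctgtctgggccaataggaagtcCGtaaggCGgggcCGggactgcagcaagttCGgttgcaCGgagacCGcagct
PC, downstream start: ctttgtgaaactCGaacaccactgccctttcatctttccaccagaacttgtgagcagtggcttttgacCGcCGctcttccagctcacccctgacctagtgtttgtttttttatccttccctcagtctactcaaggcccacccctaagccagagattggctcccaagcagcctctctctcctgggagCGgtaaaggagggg
PCK2: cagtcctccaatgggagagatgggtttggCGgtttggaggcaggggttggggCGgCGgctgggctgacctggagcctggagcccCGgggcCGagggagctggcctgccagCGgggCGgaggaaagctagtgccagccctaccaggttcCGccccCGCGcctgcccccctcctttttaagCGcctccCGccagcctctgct

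Of the 8 genes, 7 had a promoter region and SLC2A3 had none, against 75.3% of all protein-coding genes with one. PFKM had the highest level, 31.5 mean normalized counts per kb, and G6PC2 the lowest, 8.81, a 3.58-fold range. The order between them was PFKFB2 (21.2), SLC2A1 (18.0), PCK2 (16.7), SLC2A2 (15.3) and PC (10.3). Neighbours in this order differed by 1.07-fold (SLC2A1 over PCK2) to 1.49-fold (PFKM over PFKFB2, and SLC2A2 over PC), and with no spread over samples it is not known whether any of these steps is a difference. PFKM and PFKFB2, both of the phosphofructokinase step, were the 2 genes above the median of all promoters, while the other 5 genes with a region were below it. SLC2A1, at percentile 45.9, moved above the median when all regions of each window were summed (53.1) or the level was not divided by length (69.4). Among regions of at least 10 mean normalized counts alone, G6PC2 was at percentile 3.19 and PC at 6.87, against 13.0 and 17.7 among all genes with a region. Without division by length these were 22.2 for G6PC2, 32.6 for PC and 99.6 for PFKFB2, the last against 57.8 per kb. PFKM was then at percentile 72.5, against 85.2 per kb. By undivided level PFKFB2 was the highest gene, with 319.5 mean normalized counts against 83.8 for PFKM, and the range down to G6PC2 was 17.3-fold. The median of the 7 genes was 16.7 per kb, against 19.0 over all promoters.

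**Figure D1:**
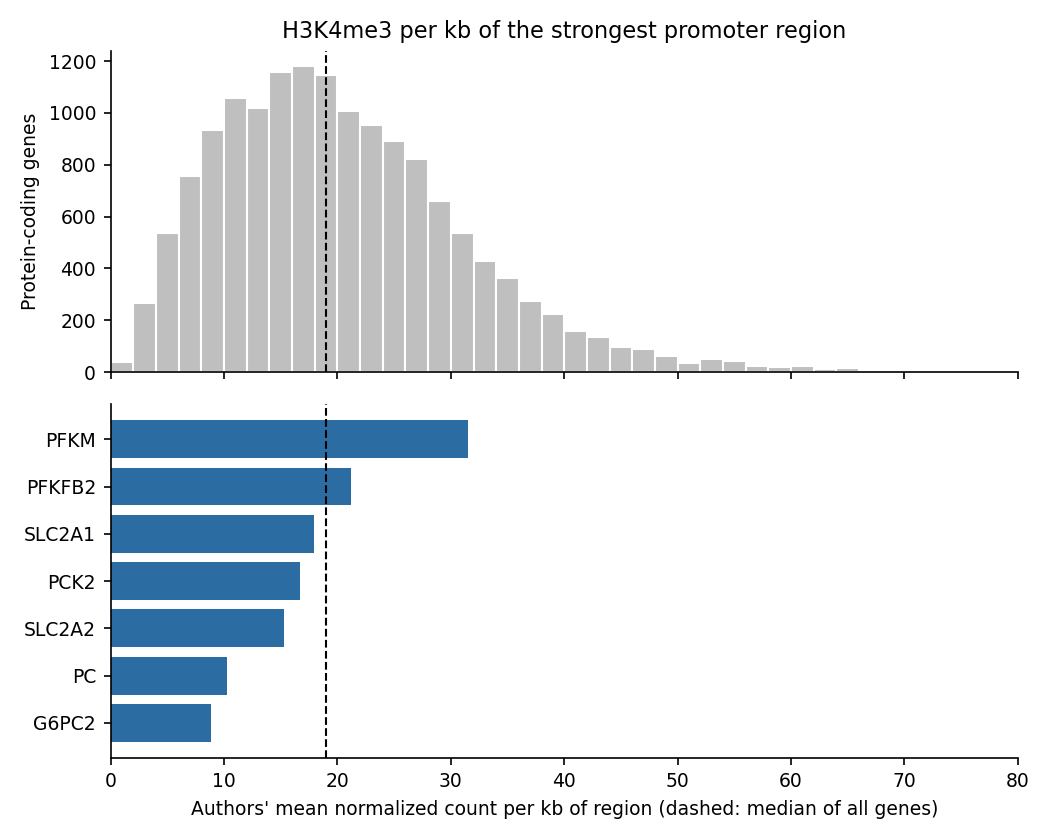
The upper panel is a histogram of mean normalized count per kb of the strongest promoter region for protein-coding genes, 15085 in all. The 14 genes at 80 or more lie beyond the axis, and genes just below 80 are not drawn either. The lower panel gives the same level for the 7 genes with a region. The dashed line is the median of all genes, 19.0, which PFKM at 31.5 and PFKFB2 at 21.2 exceed.

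SLC2A1 encodes GLUT1, the ubiquitous high-affinity transporter that is the main GLUT of human beta cells. Its region, chr1:42955568-42959918 (hg38), was 4350 bp wide, held 78.2 mean normalized counts and reached 18.0 per kb, at percentile 45.9. Its width was greater than that of 85.4% of the promoter regions. It covered the canonical start site, the first exon with coding sequence and 3300 bp of the gene beyond the start, and 6 of 11 annotated start sites lay inside it. The remaining 5 start sites, farther into the gene, had no region over them. At the 3′ end of the gene a second strong region, chr1:42922949-42925689, overlapped an exon of untranslated sequence with 43.9 mean normalized counts, or 16.0 per kb. That is 3810 bp from any annotated SLC2A1 start, outside the window, and close to the promoter's own level per kb. Regions in an intron (4.83 and 5.72 mean normalized counts) and upstream of the gene (2.37 and 11.7) were weak.

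SLC2A2 encodes GLUT2, the low-affinity transporter of liver and of rodent beta cells. Its region, chr3:171026422-171029309, held 44.1 mean normalized counts over 2887 bp, which is 15.3 per kb and percentile 35.5. The mark lay mostly upstream of the gene: the region began 2589 bp before the canonical start and ended 298 bp after it. This is the reverse of SLC2A1, whose region reached 1050 bp upstream and 3300 bp downstream. The 2 start sites inside it were those of the first group, and the internal starts 7799 bp or more away had no region. Per kb, SLC2A1 stood 1.18-fold above SLC2A2.

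SLC2A3 encodes GLUT3, the high-affinity transporter best known from neurons. None of its 11 start sites had a region within 2 kb, a state shared with 24.7% of protein-coding genes. From the canonical start the nearest region was 60239 bp away and weak, at 2.53 mean normalized counts. The closest strong region, chr12:8026022-8028799 with 50.5, lay 7015 bp from its most upstream start. SLC2A3 has a near copy, SLC2A14, which also had no region. Of the 31-base stretches in the 4001 bases around the canonical start, 21.0% occurred more than once in the genome, against 0% to 14.4% for the other 7 genes. The remaining 79.0% occurred once. Whether reads with several matches were kept is not given in the sources used here, and the part of repeated sequence in the missing region was not tested.

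G6PC2 encodes the islet glucose-6-phosphatase subunit, which returns glucose phosphate to glucose. Its region, chr2:168899559-168901651, had 18.4 mean normalized counts over 2092 bp. At 8.81 per kb, percentile 13.0, this was the lowest of the 7 levels. The region covered the canonical start and 3 of 4 start sites, began 1732 bp upstream and ended 360 bp into the gene, with coding sequence of the first exon inside. Beyond the 3′ end of G6PC2, the neighbouring SPC25 promoter, a kinetochore gene, held 29.5 per kb. The ubiquitous family member G6PC3 had 22.1 per kb, 2.50 times the level of G6PC2, and the liver gene G6PC1 had no region. Of the high-affinity hexokinases, which run the opposite reaction, HK1 had 5.62 per kb over a region of 785 bp and HK2 11.2 per kb over 500 bp. HK3 and HKDC1 had no region.

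**Figure D2:**
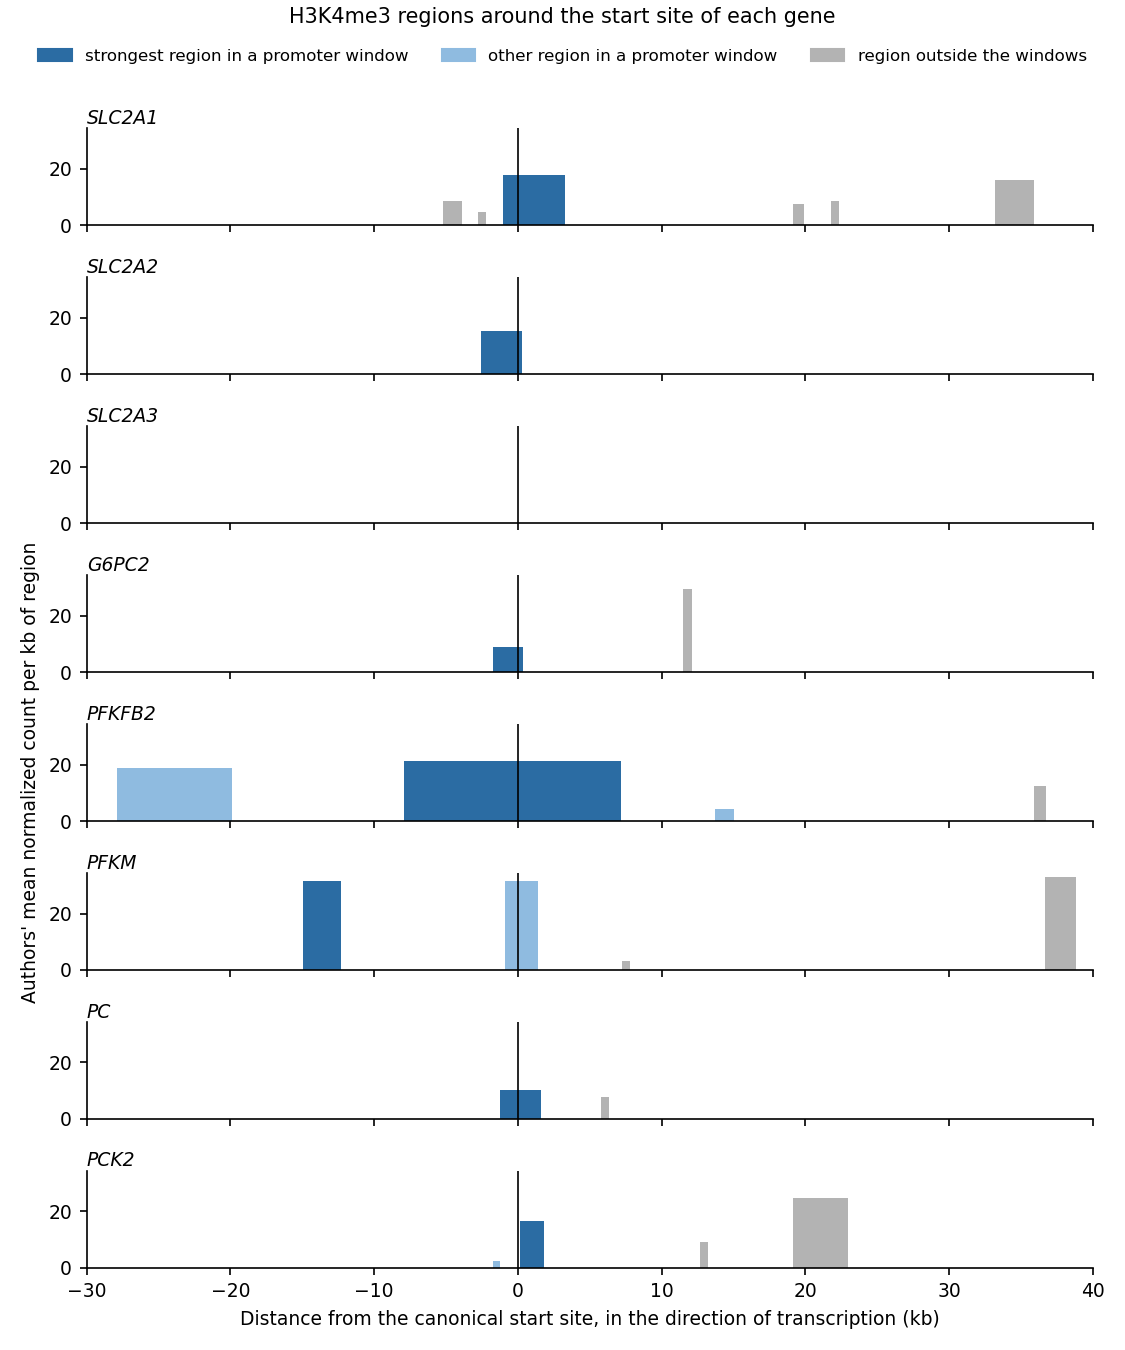
Each panel shows the H3K4me3 regions around 1 gene, with distance from its canonical start site in kb along the direction of transcription on the x axis and mean normalized count per kb as bar height on the y axis; bar width is region width to scale. Dark blue bars are the strongest regions, light blue bars other promoter regions and grey bars regions outside the windows: PFKFB2 has the widest, SLC2A3 has none in the plotted range, and the PC region 102036 bp downstream of its start lies beyond it.

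PFKFB2 encodes the bifunctional enzyme that makes and breaks down the sugar bisphosphate activating phosphofructokinase. Its main region, chr1:207045362-207060426, was 15064 bp wide and held 319.5 mean normalized counts. It ranked 25 by width among the 15085 genes. Per kb it was near the middle, at 21.2 and percentile 57.8. The region ran from 7913 bp before the canonical start to 7151 bp after it and covered 3 of 7 start sites and coding sequence. It also held 2 start sites of YOD1, a deubiquitinase gene on the opposite strand whose canonical start is 2067 bp away, so the level of PFKFB2 and that of YOD1 are the same number. A second wide region, chr1:207025382-207033389, came within 977 bp of the upstream PFKFB2 start, with 151.9 mean normalized counts over 8007 bp, or 19.0 per kb. It covered the canonical start of C1orf116 and no PFKFB2 start. Both regions are among the class of at least 8 kb, which 1.29% of genes have as their strongest. A further, weak region at chr1:207067011-207068308 had 4.36 per kb and lay near an internal start of a transcript that is not protein-coding.

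The other genes of this enzyme family had narrower and lower regions. PFKFB2 was 3.67 times as wide as PFKFB4, 4.33 times as wide as PFKFB3 and 7.91 times as wide as PFKFB1. Per kb the excess was smaller, 1.41-fold over PFKFB4, 1.74-fold over PFKFB1 and 2.25-fold over PFKFB3. The PFKFB1 region was also the strongest of APEX2 and cannot be assigned to PFKFB1 alone. Among the 10 beta cell markers read for the cell type, regions over 10 kb were found at the transcription factors ISL1 (15448 bp), NKX2-2 (14606 bp), NEUROD1 (13405 bp, shared with CERKL) and PDX1 (11552 bp), and at the zinc transporter gene SLC30A8 (19456 bp). The remaining markers were narrower, with 6870 bp at NKX6-1, 4954 bp at PCSK1, 1765 bp at INS and 918 bp at IAPP, and MAFA had no region. Such widths were not limited to beta cell genes: ATP5F1E, of the ATP synthase, had 19782 bp in a region shared with PRELID3B, and BTG1, an antiproliferative gene, 15955 bp.

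**Figure D3:**
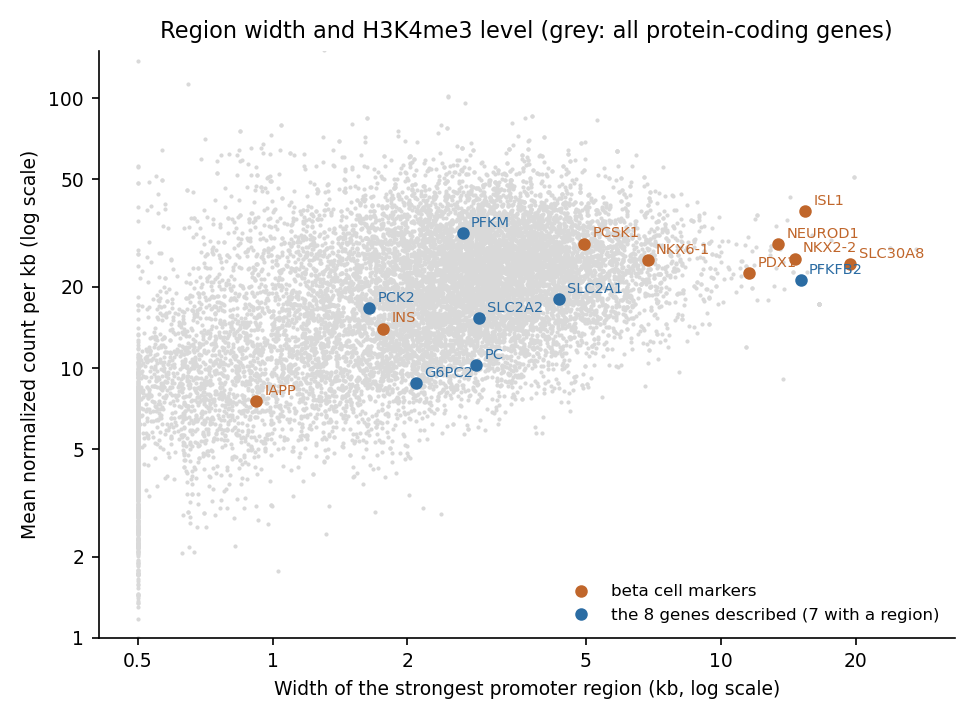
Width of the strongest promoter region in kb (x axis, log scale) against mean normalized count per kb (y axis, log scale) for all protein-coding genes with a region (grey; 3 lie outside the plotted levels), the 7 described genes with a region (blue) and 9 beta cell markers (orange). PFKFB2 at 15.1 kb lies with NKX2-2, ISL1, NEUROD1 and SLC30A8 at the wide end, and G6PC2, PC and SLC2A2 lie among the bulk of genes.

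PFKM encodes the muscle type subunit of phosphofructokinase, the enzyme of the first step committed to glycolysis. It had 2 promoter regions of nearly equal strength. The upstream one, chr12:48104405-48107062, held 83.8 mean normalized counts over 2657 bp, or 31.5 per kb at percentile 85.2. The downstream one, chr12:48118443-48120733, held 71.9 over 2290 bp, or 31.4 per kb, and covered the canonical start and an exon of untranslated sequence. Of 28 annotated start sites, 11 lay in the first and 9 in the second. The upstream region was shared with SENP1, a SUMO protease gene on the opposite strand with 6 start sites inside, so its counts cannot be assigned to PFKM alone. The downstream region was shared with no other protein-coding gene, and by it PFKM would still have the highest level per kb of the 8 genes. A group of 3 further start sites, 1841 bp past the downstream region, had no region over it. The RefSeq promoter there, the downstream PFKM sequence printed above, had 1 CpG in 300 bases. Per kb, PFKM stood 2.13-fold above PFKP, the platelet type gene, and 6.61-fold above PFKL, the liver type gene, which had 4.77 per kb. In this enzyme step FBP1, of the reverse reaction, had 11.4 per kb and FBP2 had no region.

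PC encodes pyruvate carboxylase, which turns pyruvate into oxaloacetate in mitochondria. Its main region, chr11:66956753-66959600, held 29.2 mean normalized counts over 2847 bp, or 10.3 per kb at percentile 17.7. It covered the canonical start, an exon of untranslated sequence and 6 of 12 start sites. PC start sites farther downstream were mostly bare: the protein-coding starts at chr11 positions 66907901 and 66872039 were 44147 bp and 15692 bp from the nearest region. A weak region at chr11:66855735-66856347, with 7.22 mean normalized counts and 11.8 per kb, held 2 internal starts of transcripts that are not protein-coding and lay within 2 kb of a start of LRFN4. Per kb, PC was the lowest of the 20 genes with a region in its list of pyruvate entry and anaplerosis, while undivided it held more counts than PCK2, PDK3, ME1, ME3 and PDK2.

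PCK2 encodes the mitochondrial form of phosphoenolpyruvate carboxykinase, which makes phosphoenolpyruvate from oxaloacetate. Its main region, chr14:24094494-24096135, held 27.4 mean normalized counts over 1641 bp, or 16.7 per kb at percentile 40.7. Here the region began 117 bp past the nearest start, lay within an intron of the canonical transcript and covered none of the 14 start sites. That is so for the strongest region of 22.3% of genes. It did hold a start of NRL, on the opposite strand, although the main region of NRL was another one. Its counts thus cannot be assigned to PCK2 alone. A second region before the gene, chr14:24092580-24093080, had 1.26 mean normalized counts, or 2.53 per kb. The cytosolic counterpart PCK1 had no region. Per kb, PCK2 stood 1.63 times as high as PC, but the undivided level of PC, 29.2, was slightly above the 27.4 of PCK2.

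Over the 8 genes, annotated starts closer than 500 bp were joined, which gave 34 groups of start sites. A region covered 8 of the 34, among them the group with the canonical start in SLC2A1, SLC2A2, G6PC2, PFKFB2, PFKM and PC. PFKM and PC were the genes with a region over more than 1 group. The 12 promoter regions were thus spread unevenly: 3 for PFKFB2, 2 each for PFKM, PC and PCK2, and 1 each for SLC2A1, SLC2A2 and G6PC2. Among all protein-coding genes with a region, 55.5% had 1, and the median was 1. The share of covered start groups over all genes is not given here, so whether 8 of 34 is unusual is not known.

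CpG content divided the genes in another way than their H3K4me3. In the 300-base RefSeq promoters, CpG observed over expected was 0.803 in SLC2A1, 0.781 at the upstream start of PC and 0.390 to 0.736 over the PFKM starts inside its upstream region, with 0.625 at the entry listed first. PCK2 was just under the limit of 0.6, at 0.598, and G6PC2 (0.286) and SLC2A2 (0.113) were CpG-poor. Over all genes matched, 93.1% of those at 0.6 or more had a region against 47.4% of those below, so SLC2A2 and G6PC2 belong to the class that often lacks one. Within that class PCK2 was at percentile 57.2, SLC2A2 at 52.8 and G6PC2 at 26.2 of the level per kb. Among CpG-rich promoters PFKM was at percentile 83.4, SLC2A1 at 40.1 and PC at 12.4. The low level of PC thus came with a CpG-rich start and a region whose own CpG ratio, 0.736, exceeded that of 85.8% of genes. Across 11941 genes the level per kb followed promoter CpG content weakly, with Spearman's rho of 0.193. Genes are not independent replicates and share libraries and base composition, so this is a description.

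**Figure D4:**
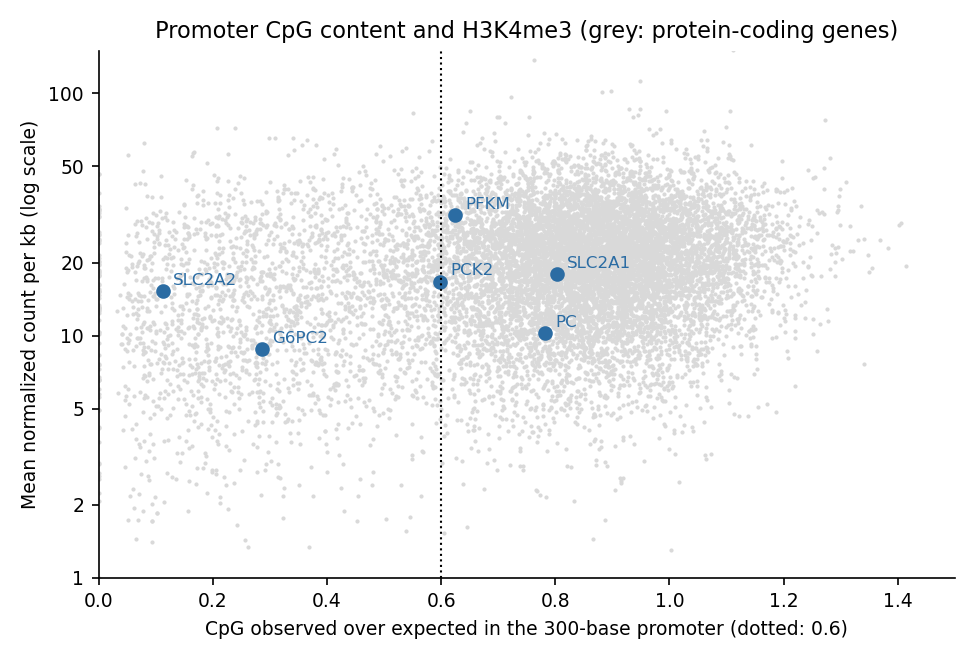
CpG observed over expected in the 300-base RefSeq promoter (x axis) against mean normalized count per kb of the strongest region (y axis, log scale), with protein-coding genes in grey and 6 of the described genes in blue. The dotted line is at 0.6: SLC2A2 at 0.113 and G6PC2 at 0.286 lie to its left, PCK2 at 0.598 almost on it, and PC at 0.781 lies low among CpG-rich promoters.

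The wide PFKFB2 region was CpG-poor as a whole, with a ratio of 0.360 that exceeded 11.3% of genes, and the G6PC2 region had a GC content of 36.8%, higher than in 1.56% of genes. Letters searched on both strands of the 21613 RefSeq promoters gave few shared features. TATAAA, the core of the TATA box, was present in 9.45% of all promoters and in 3 of the 14 entries of the described genes. It stood 31 to 26 bases before the start in SLC2A1 and 29 to 24 bases before it in G6PC2, and PFKM had it on the other strand, 197 to 192 bases before an upstream start. GGGCGG, the core of the GC box, was in 56.8% of all promoters and in 8 of the 14 entries of the described genes. Those entries were of SLC2A1, PFKM, PC and PCK2, with 4 matches in PCK2. TGCTGAC, the core of the MAF recognition element, was in 3.81% of promoters and in G6PC2, 78 to 72 bases before the start. GTTAAT (5.58% of promoters) and TGTTTGC (3.41%) each matched a PC start with no region over it, and CACGTG (8.35%), TAATTA (3.35%) and TGTTTAC (2.87%) matched none of the 14 entries. Apart from a pair of GGGCGG matches at a PC start with no region, no matches overlapped within an entry. Several PFKM entries overlap each other, and some of their GGGCGG matches are the same bases found again. A match is a description of letters and not a bound site.

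The rest of the pathway gives the setting. Of 62 other genes of glucose transport, glycolysis and pyruvate use, 52 had a region, and 15 of these were above the median of all promoters and 37 below, with a median of 15.1 per kb. Among 16 transporters, 12 had a region. SLC2A9, a urate carrier, was highest at 30.4 per kb, followed by SLC2A8 (19.2) and SLC2A13 (18.6). SLC2A1 came next, SLC2A2 after it, and SLC2A4, the insulin-responsive transporter of muscle and fat, was lowest at 8.97, with SLC2A11 (9.18) and SLC2A10 (10.1). SLC2A5 and SLC2A7 had no region, as SLC2A3 and SLC2A14.

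In the phosphorylation list, 7 of 10 genes had a region, with G6PC3 and SLC37A4 (17.9) among the highest and HK1, G6PC2 and HK2 lowest. The phosphofructokinase list had regions at 8 of 9 genes. PFKM and PFKFB2 led it, followed by PFKFB4 at 15.1 per kb, and PFKL, PFKFB3 (9.42) and FBP1 were lowest. Of the other glycolysis enzymes, 12 of 14 had a region. The aldolase gene ALDOA (24.9 per kb) and the enolase gene ENO3 (30.7, a region shared with PFN1) were among those above the median, the liver pyruvate kinase gene PKLR (6.39), ENO2 (10.7) and ENO1 (11.4) were lowest, and ALDOC and PGAM2 had no region.

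In the pyruvate list, 20 of 21 genes had a region and 8 were above the median. It held the malate dehydrogenase gene MDH2 at 44.8 per kb and the genes of both mitochondrial pyruvate carrier subunits, MPC2 at 44.1 and MPC1 at 43.3. PC, at 10.3, had 4.36-fold less per kb than MDH2 and lay below ME3 (12.7) and PDK2 (13.1). The carrier that brings pyruvate into the mitochondrion and the carboxylase that receives it there were thus near the top and at the bottom of the list per kb. LDHA and the monocarboxylate carrier gene SLC16A1, which beta cells are known to keep low, had 16.4 and 13.2 per kb, and LDHB, for the other lactate dehydrogenase subunit, had 36.8. Some of these regions are shared with a neighbouring gene, that of MDH2 with STYXL1, that of MPC2 with DCAF6 and that of LDHB with an annotated gene without a symbol.

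**Figure D5:**
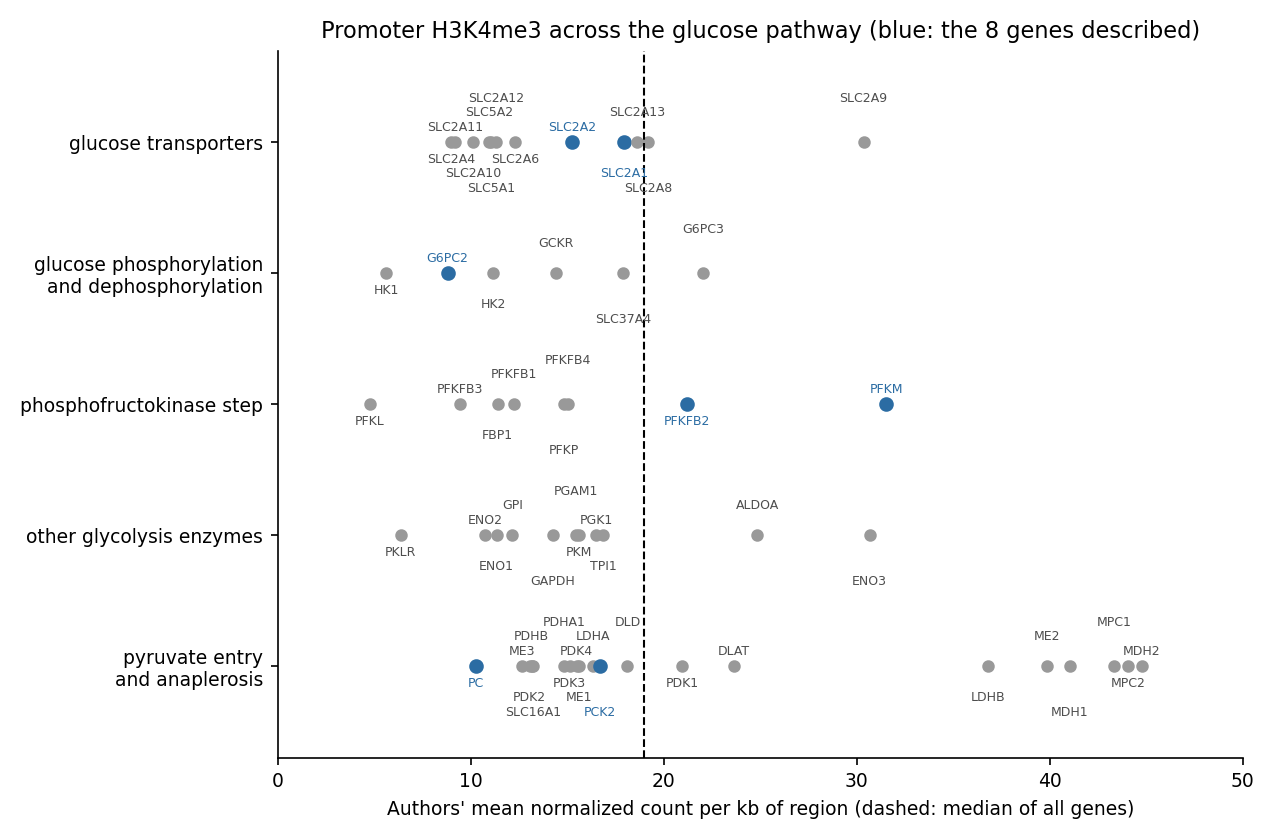
Each point is a gene (a few genes of the lists are not drawn), placed by the mean normalized count per kb of its strongest promoter region (x axis) in its pathway list (y axis), with the described genes in blue and the median of all protein-coding genes, 19.0, dashed. PFKM and PFKFB2 lead the phosphofructokinase step, and G6PC2 and PC lie near or at the low end of their lists.

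Marker promoters were read in the same way to check the labelled cell type. Of 10 beta cell markers, 9 had a region and 7 of these were above the median of all promoters, with NKX6-1 at 25.2 per kb and PCSK1 at 28.9. INS (percentile 30.6) and IAPP (percentile 9.24) were below it and MAFA had no region. No acinar, duct, hepatocyte, muscle or blood marker was above the median, of 15 genes in these lists of which 9 had a region. The alpha cell genes IRX2 (31.5) and TTR (20.6) were above it, GCG had 6.99, and the delta cell genes SST (11.0) and HHEX (12.2) were below. MYOD1, of skeletal muscle, reached 16.9 per kb, ACTA1 5.33, and CKM had no region.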

How the data were processed

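H3K4me3 MINT-ChIP was carried out on 4 non-senescent and 4 senescent samples. Per the labels and the study's methods, paired-end reads were aligned to hg38 with Bowtie2 and processed with samtools, peaks were found with HOMER findPeaks, and regions were compared with DESeq2. How peaks were merged, reads counted and duplicates treated is not given in the sources used here. The deposited signal of a region is the authors' mean of DESeq2-normalized counts over samples, and 1 table holds 97545 regions. Its other 5 value columns hold the authors' comparison of the states (log2 fold change, its error, a test statistic, p-value and adjusted p-value) and were not used. With no value per sample no test was refitted, and no comparison between states is reported. Depth per sample is unknown. The 16 H3K27me3 and H3K9me3 samples were not analysed here.

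GENCODE release 44 gave the start sites of all transcripts of protein-coding genes, and windows reached 2 kb to either side. Region width was end minus start, with coordinates as deposited; whether they count from 0 or 1 is not given in the sources used here. Promoter sequences came from RefSeq (GRCh38.p14), and 31-base stretches were counted over hg38. The genes and lists were chosen with earlier results of these data known. All 8 genes are named, with the 3 highest, the 3 lowest and the unmarked genes of each pathway list and the genes that share a region, apart from some that are counted in their lists and not reported here by name. The marker genes are named besides, as are PFKP, PFKFB1, SPC25, LDHA, LDHB, SLC16A1, PDK3, ME1, ATP5F1E, BTG1 and genes that share their regions, after their values were seen. Besides 10 alternatives, start sites of protein-coding transcripts only were tried, as 1 alternative chosen after seeing the data. The assignment of regions to genes was tested on simulated data. Python 3.11.15 with numpy 2.4.6, pandas 2.3.3, scipy 1.17.1, numba 0.67.0, matplotlib 3.10.9 and pysam 0.24.0 was used, and samtools 1.23.1.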

Additional observations from a re-analysis of the deposited data

How the results depend on the processing

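Under windows of 1 kb and 5 kb, the region nearest to a start site, the region with the highest level per kb, canonical start sites only and start sites of protein-coding transcripts only (chosen after seeing the data), 7 of the 8 genes had a region, their median was 16.7 per kb and 2 were above the median of all promoters. With all regions of a window summed and divided by their summed length, weak regions are included. The median was then 15.3 per kb and 3 genes were above. The third was SLC2A1, whose own level stayed at 18.0 per kb while its percentile became 53.1. Without division by length 3 were above too. With regions of at least 10 mean normalized counts only, or 1 value per distinct region, 2 were above. Of the other pathway genes, 13 to 17 were above, against 15, in the alternatives run for them. Those did not include 1 value per distinct region or levels not divided by length. By promoter, CpG observed over expected was at least 0.6 in 3 of the 6 genes matched, against 66.5% of all genes matched. By whole region it was at least 0.6 in 2 of the 7 genes with a region, where the median ratio over all genes was 0.587. The level per kb of single genes moved in 6 of 49 recomputed values, over 13.4 to 16.7 for PCK2, 19.6 to 21.2 for PFKFB2, 10.3 to 11.8 for PC and 31.4 to 31.5 for PFKM. Percentiles moved in all 70, over 51.0 to 99.6 for PFKFB2, 3.19 to 22.2 for G6PC2, 6.87 to 32.6 for PC, 25.3 to 45.9 for SLC2A2, 37.3 to 69.4 for SLC2A1, 30.99 to 44.2 for PCK2 and 72.5 to 89.6 for PFKM.

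No paired analysis was possible because the deposited table holds no value per sample. For the same reason no test of the states was refitted and the omission of each replicate in turn was not run. The authors' own comparison of the states was deposited and not used here. A mean over both states can hide a difference between them. The depth is unknown, so no interval is given, and weak regions of a few mean normalized counts are the least certain. Regions shared by neighbouring genes (PFKM with SENP1, PFKFB2 with YOD1, PCK2 with NRL) cannot be divided between them.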
